A study of Mus musculus with 8 samples.

Results

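The loci described here are 4 stretches of the mouse genome known from developmental genetics for their domain boundaries, where the binding of CTCF was mapped in cortical neurons with and without NMDA. They were chosen by 9 named genes, Shh with Lmbr1, Epha4 with Pax3, Sox9 with Kcnj2 and Kcnj16, and Ihh with Wnt6, out of 21887 protein-coding genes. Each locus ran from 300 kb before the first gene of the pair to 300 kb after the last, with everything between them. A region belonged to a locus when its summit, the position of its highest signal, lay inside. This gave 67 of 33815 control regions and 74 of 36186 NMDA regions. The rule used no measured value.

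The assay was ChIP-seq, in which DNA bound to CTCF is pulled down with an antibody and sequenced. The cells were wild-type (WT) primary cortical neurons of Swiss-Webster mice, taken at embryonic day 16 and used on day 13 in vitro. Control cultures have the treatment label None. NMDA cultures received 50 µM NMDA, which activates the glutamate receptors named after it, for 10 minutes and then 50 minutes in medium without it. Each condition has 2 ChIP replicates and 2 inputs, and was deposited as 1 list of regions joined over both replicates. A growth protocol common to all samples also mentions etoposide, which no label assigns to any of them. The lists hold binding regions and no RNA, so the neuronal identity of the cultures was not checked against marker genes. With 1 list per condition, no difference between conditions could be tested against replicate spread, and none is called significant. All intervals are 95% Wilson intervals and cover counting error only.

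Mammalian chromosomes are folded into topologically associating domains, stretches within which enhancers and promoters meet more often than across their borders. CTCF is a zinc finger protein that, together with the ring-shaped cohesin complex, anchors chromatin loops and marks many of these borders. The loci here are classical examples in the limb, skeleton and nervous system, where deletions, inversions or duplications across a border bring an enhancer to the wrong gene. Domains and contacts were not measured in this series. Which regions correspond to borders mapped in other tissues was not tested.

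The gene models used here come with promoter sequences for 6 of the 9 genes, namely Lmbr1, Epha4, Kcnj16, Kcnj2, Wnt6 and Ihh. The sequences below are RefSeq sequences of build GRCm38.p6, each the first 260 bases of a promoter window that starts 250 bases before a listed transcript start. For Gm33083, Retreg2 and Kcnj2 that start is the edge of the gene span used here, while for Prkag3 and Epha4 it lies inside the span. They are shown because a CTCF region overlaps each of them, and in the first 2 the summits of both lists fall inside. The first lies in the stretch between Epha4 and Pax3, at the start of the long noncoding RNA gene Gm33083. The next 2 belong to Prkag3 and Retreg2 of the Ihh-Wnt6 locus. The last 2 are promoters of member genes, Kcnj2 and Epha4. Capitals mark matches, on either strand, to AGGNGGC or to CCNNNAGNNGGC, short forms of the core of the CTCF motif.
Gm33083, chr1:77896289-77896548, minus strand: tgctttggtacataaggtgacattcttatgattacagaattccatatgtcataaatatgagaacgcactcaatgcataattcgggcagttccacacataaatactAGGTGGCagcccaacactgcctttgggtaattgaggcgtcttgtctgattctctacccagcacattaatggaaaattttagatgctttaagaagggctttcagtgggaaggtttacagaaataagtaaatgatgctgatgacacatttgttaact
Prkag3, chr1:74748946-74749205, minus strand: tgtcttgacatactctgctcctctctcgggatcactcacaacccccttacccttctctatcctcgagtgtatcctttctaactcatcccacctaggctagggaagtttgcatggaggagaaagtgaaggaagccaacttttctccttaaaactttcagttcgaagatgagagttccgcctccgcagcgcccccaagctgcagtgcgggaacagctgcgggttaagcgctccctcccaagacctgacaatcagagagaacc
Retreg2, chr1:75142536-75142795, plus strand: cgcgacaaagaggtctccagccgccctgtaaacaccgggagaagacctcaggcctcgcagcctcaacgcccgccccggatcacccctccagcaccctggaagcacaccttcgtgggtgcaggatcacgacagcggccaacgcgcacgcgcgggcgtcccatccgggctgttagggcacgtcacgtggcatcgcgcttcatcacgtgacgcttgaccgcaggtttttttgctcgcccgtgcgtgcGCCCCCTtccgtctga
Kcnj2, chr11:111065914-111066173, plus strand: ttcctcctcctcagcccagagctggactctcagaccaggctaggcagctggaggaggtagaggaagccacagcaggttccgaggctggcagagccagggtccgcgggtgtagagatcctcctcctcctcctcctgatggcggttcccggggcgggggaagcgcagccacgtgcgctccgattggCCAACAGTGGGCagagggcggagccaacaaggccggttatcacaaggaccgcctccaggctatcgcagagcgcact
Epha4, chr1:77515079-77515338, minus strand: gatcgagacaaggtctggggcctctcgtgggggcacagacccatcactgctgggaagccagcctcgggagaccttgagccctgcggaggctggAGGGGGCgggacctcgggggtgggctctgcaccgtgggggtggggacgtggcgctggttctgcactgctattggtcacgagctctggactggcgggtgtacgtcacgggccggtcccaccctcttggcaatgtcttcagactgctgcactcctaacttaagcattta

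In the Gm33083 sequence, with positions counted from 1 at the 5′ end, AGGTGGC occupied bases 106 to 112. The control summit was at base 116 and the NMDA summit at base 156. In Prkag3 neither motif was found in these letters, and the summits were at bases 223 (control) and 195 (NMDA). In Retreg2 the reverse complement of AGGNGGC covered bases 245 to 251, with the summits at bases 280 and 282 of the promoter window, just past the printed stretch. In Kcnj2 and Epha4 the summits lay more than 1 kb before the first printed base, so the matches there are not at a summit. The shorter motif, chosen after these sequences were seen, occurs in 29.4% of all 32851 promoter windows of 300 bases and in 57.4% of the 1998 with an NMDA summit inside. The longer one occurs in 8.61% and 34.6%. A longer match contains AG, any 2 bases and GGC, so it can overlap a shorter one. A match describes letters and is not evidence of a bound site.

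Most regions of the 4 loci were shared between the lists, which here means an overlap of 1 bp or more. In control, 62 of the 67 (92.5%, interval 83.7 to 96.8) were shared and 5 were not, against a background of 9.22% without an overlap over the whole control list. Of the 74 NMDA regions, 61 (82.4%, 72.2 to 89.4) overlapped a control region and 13 did not, against a background of 15.5%. Both shares without an overlap lay near the background. Merged across lists, the regions made up 77 sites, of which 59 were shared, 5 control-only and 13 NMDA-only.

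Signals below are the authors' −log10 p-values of a region, which in the NMDA list are sums over both replicates; for the control list this was not checked. Since they depend on depth, and depth is not known here, each is given with its percentile within its own list, where 100 is the strongest region and 50 the median. For the NMDA list the value in each of 2 replicate columns is known as well. These are named below by their order, first and second, since no source ties a column to a replicate. Their whole-list medians were 32.1 and 56.1. A difference between the columns is one between single values, while a difference between the lists uses their sum.

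**Figure D1:**
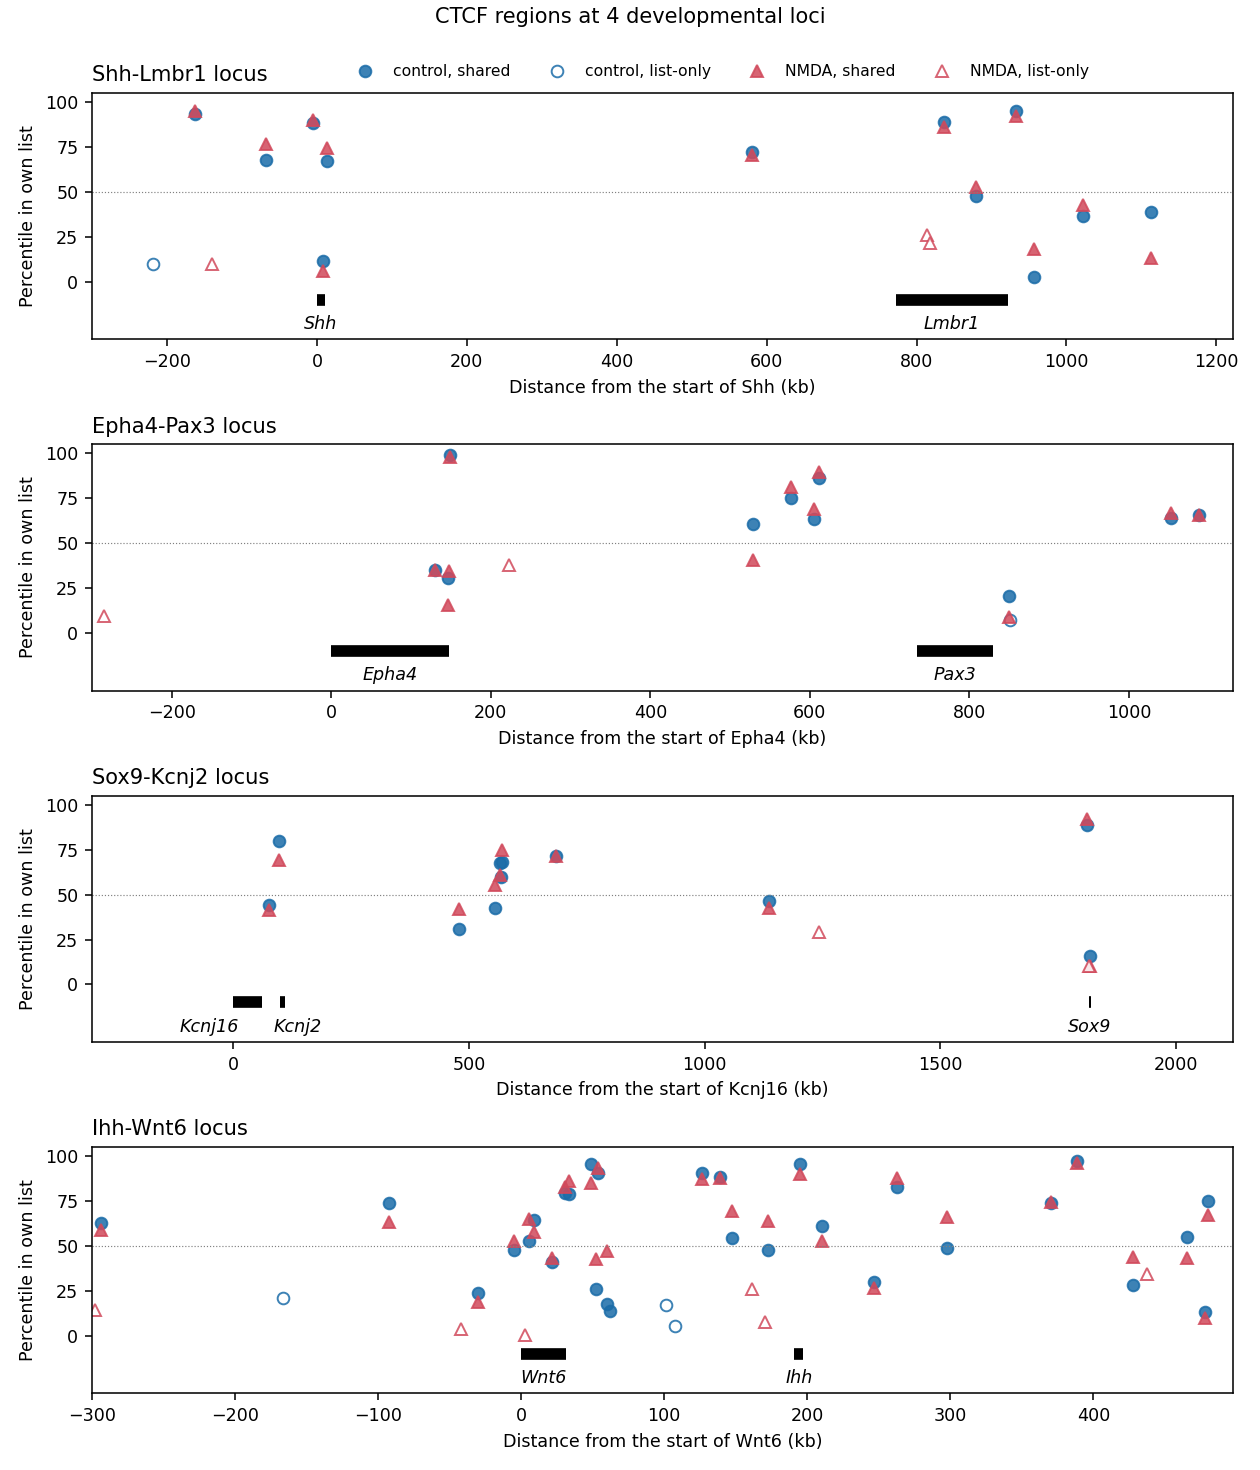
Position and rank of every CTCF region at the 4 loci. Each panel is 1 locus, with the distance from the start of its first gene in kb on the horizontal axis and the percentile of the region's signal within its own list on the vertical axis. Circles are control and triangles NMDA regions, filled where shared and open where found in 1 list, and black bars are the named genes. Filled circles and triangles lie close together at most sites, open symbols lie at or below the 38.0th percentile, and the stretch of 567 kb between Shh and the next region is empty in both lists.

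The Shh-Lmbr1 locus (chromosome 5, 28156840 to 29678421, mm10) held 13 control and 15 NMDA regions. Shh encodes Sonic hedgehog, a secreted signal that patterns the limb, neural tube and forebrain. Lmbr1 is a distant neighbour whose intron holds the limb enhancer of Shh known as the ZRS. Shh had a shared region above the list median on each side and a weak one inside. The region on the side away from Lmbr1 (28450759 to 28451723), with its summit 5.47 kb from the gene, had a control signal of 466 (88.2nd percentile) and an NMDA signal of 337 (90.1), made up of 127.9 and 209 in the replicate columns. The region on the side of Lmbr1 (28469161 to 28470237), 2.83 kb away, had 254 in control (67.0) and 192 with NMDA (74.2), made up of 106.8 and 85.7. Between the lists these 2 regions differed by at most 7.2 percentile points, while in the replicate columns of the region facing Lmbr1 the difference, second minus first, was −21.6 points. The region inside Shh (28464350 to 28465808) was weak, with 53.8 in control (11.6) and 23.8 with NMDA (6.2), and its summits lay 468 bp apart.

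Between the 2 genes of this pair lie 763 kb, and only 2 regions per list fell there. The first was the region beside Shh described above. The other (29036235 to 29037704) lay far from either gene, 155.8 kb from the end of Rnf32, with 292 in control (72.4) and 171 with NMDA (70.5), made up of 56.1 and 115. The stretch between them measured 567 kb in both lists, and 1.86% of the gaps between neighbouring summits over the whole control list were as long or longer (1.71% in the NMDA list). This is a share of gaps and not of bases, of which long gaps hold more, and the gap is the longest of its locus. From the region far from either gene, the next one, inside Lmbr1, followed after 256 kb in control. With NMDA it followed after 234 kb and was an NMDA-only region of Lmbr1.

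Lmbr1 held 2 shared regions inside its span and 2 NMDA-only ones. The stronger shared region (29292988 to 29294025) had 476 in control (88.7) and 285 with NMDA (86.2), made up of 77.8 and 207.6. The weaker (29335595 to 29337166) had 154.5 (47.4) and 98.6 (52.6), and here the replicate columns stood 30.8 percentile points apart, with 18.1 and 80.5. Both NMDA-only regions were weak, at the 25.9th and 21.4th percentile. The first (29270827 to 29271582) had a signal of 42.2 and the second (29274809 to 29275713) 37.1, and the nearest control summits were 22.4 and 18.4 kb away. The strongest control region of the whole locus lay 11.1 kb beyond Lmbr1 (29388790 to 29389958), with 704 in control (95.1) and 377 with NMDA (92.3), almost equal in the replicate columns at 187.6 and 189.3.

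In the flanks, a shared region 22.6 kb from Rbm33 (28293442 to 28294752) had 610 in control (93.5) and 448 with NMDA (95.1). Another shared region inside Rbm33 (28387767 to 28389017) was at the 67.5th percentile in control and the 76.4th with NMDA. Near an end of Ube3c, a ubiquitin ligase gene, a shared region (29568978 to 29570376) had 121.9 in control (39.1) and 29.5 with NMDA (13.5), a difference of −25.6 points. Its replicate columns held 13.2 and 16.3. Their difference, second minus first, was −4.1 points, smaller than that between the lists. The single control-only region lay in Cnpy1 (28238114 to 28239179, 50.8, 9.8th percentile), 55.7 kb from the nearest NMDA summit. An NMDA-only region lay 190 bp from an end of Rbm33 (28316503 to 28317337, 26.3), with 16.4 and 9.94 in the replicate columns.

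The Epha4-Pax3 locus (chromosome 1, 77067182 to 78497136) held 11 control and 13 NMDA regions. Epha4 encodes a receptor tyrosine kinase of axon guidance and limb innervation, and Pax3 a transcription factor of neural crest and muscle progenitors. Epha4 carried the strongest region of all 4 loci. Its control form (77514019 to 77517336) covered the gene's start with 1278 (99.0th percentile, rank 323). The NMDA region, with its summit 8 bp away (77515247 to 77517933), had 630.1 (98.2, rank 639), made up of 301 and 329. In the NMDA list the stretch was split, and a second, weaker region (77514142 to 77514841, 55.3, 34.6th percentile) overlapped the same control region. The summit of the strong region lay 1.37 kb before the gene. Inside Epha4, 2 weaker shared regions followed (77512837 to 77513930 and 77496403 to 77497158), with 95.2 and 109.2 in control and 31.1 and 56.2 with NMDA. The former was at the 30.5th percentile in control and the 15.4th with NMDA, and the latter at 35.3 and 35.2.

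Between Epha4 and Pax3 (586 kb), 4 shared regions lay together in 82.4 kb, with no other control region for 380 kb before and 237 kb after them. From the Epha4 side to the Pax3 side, they began with the one at the start of Gm33083 shown above (77896123 to 77897093). It had 218 in control (60.8) and 67.0 with NMDA (40.7), a difference of −20.2 points. Its replicate columns held 10.02 and 56.99, which is 42.3 points apart and wider than the difference between the lists. The next (77942604 to 77943899) had 315 (75.3) and 238 (81.2). Close to the last lay one (77972194 to 77973139) with 232 (63.3) and 164 (69.2). The last and strongest (77978311 to 77979491) had 432 (86.2) and 330 (89.7), made up of 106.8 and 222.8. The other 3 thus ranked 3.5 to 5.8 points higher in the NMDA list, within the difference between the replicate columns except at the one with 232 in control, where the lists differed by 5.8 points and the columns, second minus first, by −5.6.

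Besides these and the strong region at Epha4, the stretch between the genes held an NMDA-only region (77589088 to 77590324). It lay 74.5 kb from Epha4, had 61.4 (38.0th percentile), the highest percentile among the 13 NMDA-only regions, and 19.3 and 42.1 in the replicate columns. Its nearest control summit was that of the strong Epha4 region, 73.1 kb away. Pax3 had no region in its span or within 5 kb of it in either list. On its far side, 2 neighbouring control regions lay in the gene model Gm2102. The first was shared (78215468 to 78217099, 20.7th percentile in control and 8.8th with NMDA) and the second control-only (78217194 to 78218410, 7.5th), with its summit 1.12 kb from the nearest NMDA summit. The second overlapped an NMDA region once regions were extended by 500 bp. Farther on, a shared region lay near an end of Sgpp2, a lipid phosphatase gene (78419428 to 78420626, 64.1 and 66.9). Another lay in Farsb, a tRNA synthetase gene (78454059 to 78455672, 65.5 and 65.7). At the far edge before Epha4, an NMDA-only region stood alone, 285 kb from the gene (77081713 to 77082147, 26.1).

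The Sox9-Kcnj2 locus (chromosome 11, 110668033 to 113087757) was the longest and the sparsest, with 11 control and 12 NMDA regions in 2420 kb. Sox9 encodes a transcription factor of cartilage, testis and glia. Kcnj2 and Kcnj16 encode inwardly rectifying potassium channels. All 11 control regions were shared. Kcnj2 had 1 region at its start (111064405 to 111066415), with 358.5 in control (80.1) and 165 with NMDA (69.4), made up of 63.8 and 101.6. It overlapped the Kcnj2 promoter sequence shown above, with its summit 1.33 kb before the gene. The difference of −10.7 points between the lists, NMDA minus control, was larger than that of −2.9 points between the replicate columns. Kcnj16 had no region within 5 kb. Its nearest (111041990 to 111042987) lay 14.4 kb beyond the gene, with 142 (44.4) and 68.7 (41.5).

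Between Kcnj2 and Sox9 lie 1705 kb. Of the regions there, 6 control regions stood together in 207 kb, with 381 kb clear of other summits on the Kcnj2 side and 450.4 kb on the other. In control they ranked from the 31.1st to the 71.6th percentile. They were grouped by a limit of 150 kb between neighbours, which was set after the positions were seen, as was the group between Epha4 and Pax3. The outermost on the Kcnj2 side (111445402 to 111446870) had 96.8 in control (31.1) and 70.1 with NMDA (42.1), with 10.0 and 60.2 in the replicate columns. The next pair (111523272 to 111524144 and 111532116 to 111533278) had 135.5 (42.8) and 259 (67.8) in control. With NMDA these had 107.8 (55.4) and 127.7 (60.9). Beside them, 2 control regions 1.62 kb apart (111535664 to 111536688 and 111536777 to 111538426), with 211 and 262, met a single wide NMDA region (111535571 to 111538553) of 194.6 (74.6). The outermost on the Sox9 side (111652504 to 111653388) had 287 (71.6) and 174.8 (71.2), with 36.5 and 138 in the replicate columns.

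From that cluster to Sox9, 1 shared and 1 NMDA-only region were spread over a stretch of more than 1 Mb. The shared one (112102988 to 112103871) had 151 in control (46.6) and 71.3 with NMDA (42.6). The NMDA-only one (112208967 to 112209994) had 47.0 (29.4), with 14.1 and 32.9 in the replicate columns, 106 kb from the nearest control summit. In control the gap from the shared region to the one at Sox9 was 677 kb, and 1.41% of the gaps of the control list were as long or longer. Here too the share is of gaps and not of bases, and the gap is the longest of its locus. Sox9 itself had a strong shared region 2.21 kb away on the side of Kcnj2 (112779516 to 112780562), with 474 in control (88.6) and 373 with NMDA (92.1), made up of 154 and 218. Inside the gene a weak shared region (112784324 to 112785423) had 62.2 (16.1) and 26.7 (10.1). An NMDA-only region lay at the end of Sox9 that faces Kcnj2 (112782281 to 112783203), with 26.8 (10.45th percentile) and 11.05 and 15.8 in the replicate columns. The nearest control summit was 2.13 kb away.

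In 5 of the 11 shared regions of this locus, the percentiles in the 2 NMDA replicate columns were 20 points or more apart, always with the second column higher. Over all shared regions of the control list this background was 18.7%, and in the 4 loci together it was 14 of 62, or 22.6%. With so few regions, the share in this locus is a description.

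The Ihh-Wnt6 locus (chromosome 1, 74454342 to 75251672) was the densest, with 32 control and 34 NMDA regions in 797 kb. Ihh encodes Indian hedgehog, a signal of cartilage growth, and Wnt6 a secreted Wnt ligand. The span of Ihh held 1 broad shared region (74947721 to 74952291), with 736 in control (95.6) and 333 with NMDA (89.8), made up of 182 and 150.2. In control it reached over the gene's start, and in the NMDA list it was narrower (74948025 to 74950575) and lay inside the gene. The RefSeq span of Wnt6, which begins well before its listed promoter, held 4 shared regions. The strongest lay near its end (74783579 to 74785250), with 354 in control (79.5) and 254 with NMDA (82.9), made up of 98.2 and 155.8. A similar one followed 2.68 kb beyond (74787187 to 74788980), with 347 (78.9) and 282 (85.9). The remaining 3 inside Wnt6 had 128.8 to 238 in control and 73.8 to 144.9 with NMDA. At 2 of them (74759591 to 74760907 and 74775579 to 74777207) the percentiles were 52.8 and 40.97 in control and 65.1 and 43.6 with NMDA. The other (74762938 to 74763663) was at 64.4 and 57.6, with signals of 14.3 and 101.4 in the replicate columns. An NMDA-only region inside Wnt6 (74756741 to 74757156, 18.5) was among the weakest of its list, at the 0.19th percentile.

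The 160 kb between Wnt6 and Ihh held 12 control and 11 NMDA regions and several other genes. The strongest in control lay at an end of Wnt10a, another Wnt ligand gene (74802431 to 74803969), with 725 in control (95.4) and 273 with NMDA (85.04), made up of 131 and 142. A further strong one lay 4.10 kb beyond (74807164 to 74809645), with 514 (90.6) and 407 (93.6). Fev, a transcription factor gene of serotonin neurons, had one 518 bp from an end (74880300 to 74881550), with 512 (90.4) and 297 (87.2). In Cryba2, a lens crystallin gene, one (74892514 to 74895701) had 473 (88.6) and 304 (87.8). Past Wnt10a, 2 weak control regions (74813800 to 74815724 and 74815992 to 74817315, percentiles 17.7 and 13.5) met 1 NMDA region (74813635 to 74817280, 47.0). Their percentiles differed from that of the joined region by 29.3 and 33.5 points.

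The largest signal of this locus lay outside the pair, in a region that covered the facing ends of Cnppd1 and Retreg2 (75142383 to 75143499). It had 928 in control (97.3) and 494 with NMDA (96.3), made up of 194.8 and 299. The control summit lay inside Retreg2, 29 bp past its start. A further strong shared region lay in Nhej1, a DNA repair gene (75016321 to 75017716), with 390 in control (82.96) and 302 with NMDA (87.6), made up of 117 and 184.7. Prkag3, a subunit gene of AMP-activated kinase, carried a region over its start (74748423 to 74749661) with 157 (48.0) and 98.8 (52.6). Of the 3 control-only regions, 1 lay beside Zfp142 and Bcs1l (74587528 to 74588617, 71.5, 20.9th percentile), which neighbour each other. The others lay at Cdk5r2, an activator gene of the neuronal kinase Cdk5 (74854758 to 74855884, 63.7, 17.0th), and 4.28 kb from it (74861759 to 74862231, 43.5, percentile 5.2). The nearest NMDA summits were 73.9, 25.6 and 18.9 kb away. Apart from the one in Wnt6, the NMDA-only regions lay at an end of Atg9a (75191315 to 75192537, 55.2, 34.6th percentile) and in Cfap65 (74915756 to 74916403 with 42.4, and 74924304 to 74925061 with 24.9). Further ones lay in Usp37 (74456121 to 74456699, 30.5) and near Cyp27a1 (74711262 to 74712196, 21.7).

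**Figure D2:**
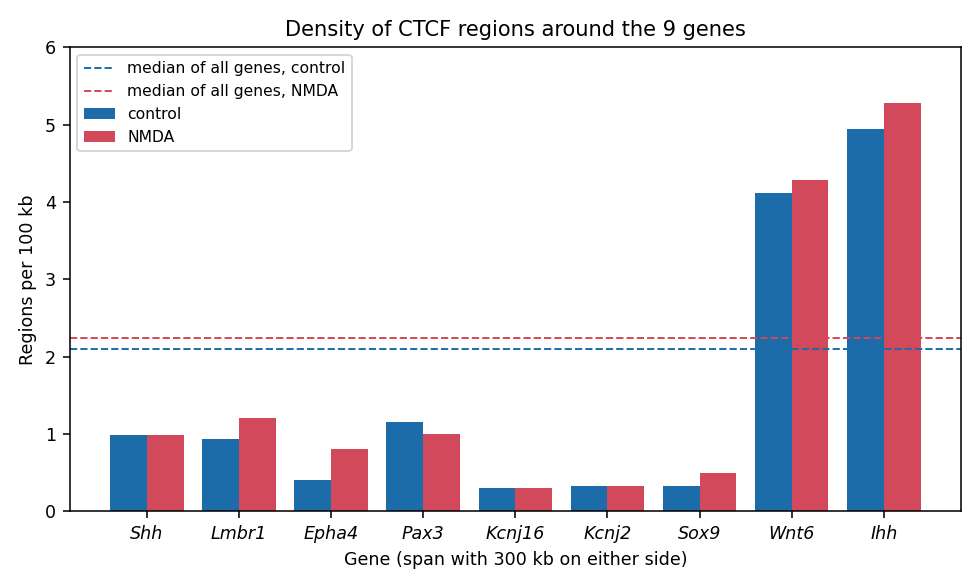
Density of CTCF regions around the 9 genes, in regions per 100 kb of the gene span with 300 kb on either side, as blue bars for control and red bars for NMDA. Dashed lines are the medians over all 21887 protein-coding genes, 2.09 in control and 2.25 with NMDA, and the bars of 7 genes stay below them while those of Wnt6 and Ihh stand above.

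The 9 genes divided by density into 7 below and 2 above the median of all protein-coding genes, in both lists. Within 300 kb of its span the median gene had 14 control regions (quartiles 7 and 22) and 15 NMDA regions (8 and 24). Ihh had 30 and 32, and Wnt6 26 and 27. Pax3 had 8 and 7, Lmbr1 7 and 9, Shh 6 and 6, and Epha4 3 and 6. Sox9 had 2 and 3, and Kcnj2 and Kcnj16 had 2 and 2, which are the same regions. Per 100 kb, Kcnj16 was at the 10.0th and Ihh at the 91.3rd percentile of all genes in control. The windows of the genes of a pair overlap for Wnt6 with Ihh, Kcnj2 with Kcnj16 and Epha4 with Pax3, so these values are not independent.

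**Figure D3:**
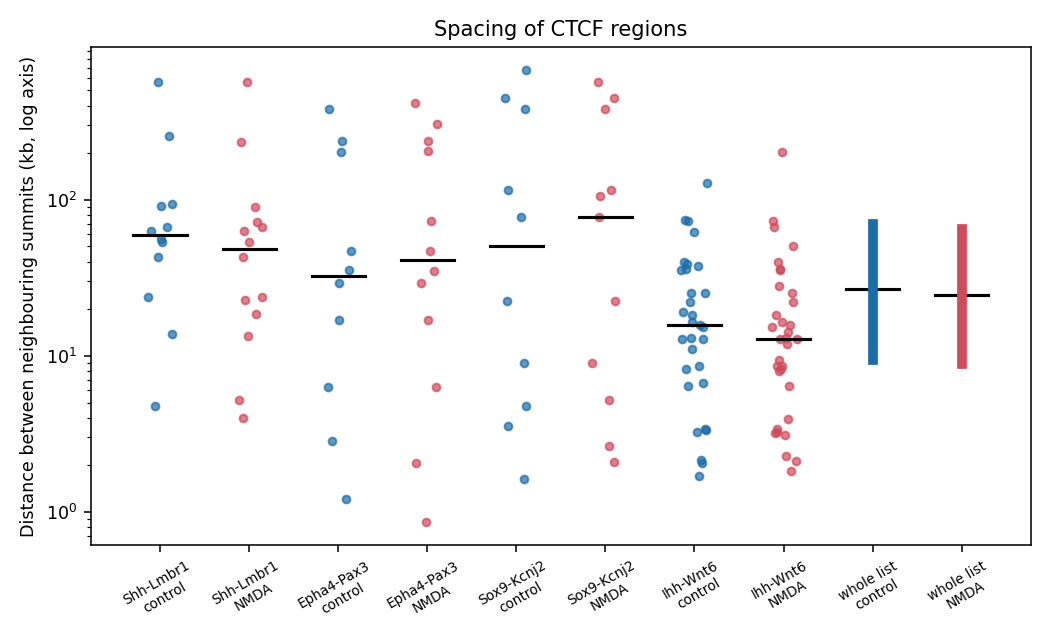
Distances between neighbouring summits within each locus, in kb on a log axis, for the control list (blue) and the NMDA list (red). Points are single gaps and black lines medians; for the whole lists the thick bar gives the quartiles. Most loci hold both gaps of a few kb and gaps above 200 kb, and only the Ihh-Wnt6 locus has a median below those of the whole lists.

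Spacing was uneven within the loci. Over the whole control list, the median distance between neighbouring summits was 26.8 kb (quartiles 9.43 and 69.7), and 7.69% of the gaps were 200 kb or longer. In the Shh-Lmbr1, Epha4-Pax3 and Sox9-Kcnj2 loci the medians were 59.3, 32.2 and 50.04 kb, and 2 of 12, 3 of 10 and 3 of 10 gaps were 200 kb or longer. In the Ihh-Wnt6 locus the median was 15.7 kb and none of the 31 gaps was that long. The NMDA list gave medians of 48.1, 40.98, 77.6 and 12.8 kb for the same loci, against 24.6 kb for the whole list. In that list the longest gap of the Ihh-Wnt6 locus was 201 kb, where the control list had the region beside Zfp142. The Ihh-Wnt6 locus had its widest gaps of 127.5 and 73.9 kb in control, and after that of 201 kb the next was 72.3 kb with NMDA. Its closest summits were 1.70 and 2.04 kb apart in control. With NMDA they were 1.81 and 2.12 kb apart. In the Epha4-Pax3 locus the widest gaps with NMDA were 415 and 307 kb, on either side of the Epha4 regions and the NMDA-only one beyond them. In the Sox9-Kcnj2 locus they were 570.4 and 450.4 kb, and its closest summits with NMDA were the neighbours at Sox9, 2.08 and 2.64 kb apart. In the Shh-Lmbr1 locus the closest summits were 4.74 and 13.8 kb apart at Shh in control. With NMDA they were 3.96 kb apart in Lmbr1 and 5.22 kb apart at Shh. Over all 4 loci the closest neighbours in control were 1.20 kb apart in Gm2102 and 1.62 kb apart between Kcnj2 and Sox9, and the closest with NMDA were the 2 summits 0.853 kb apart in Epha4, near its start.

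**Figure D4:**
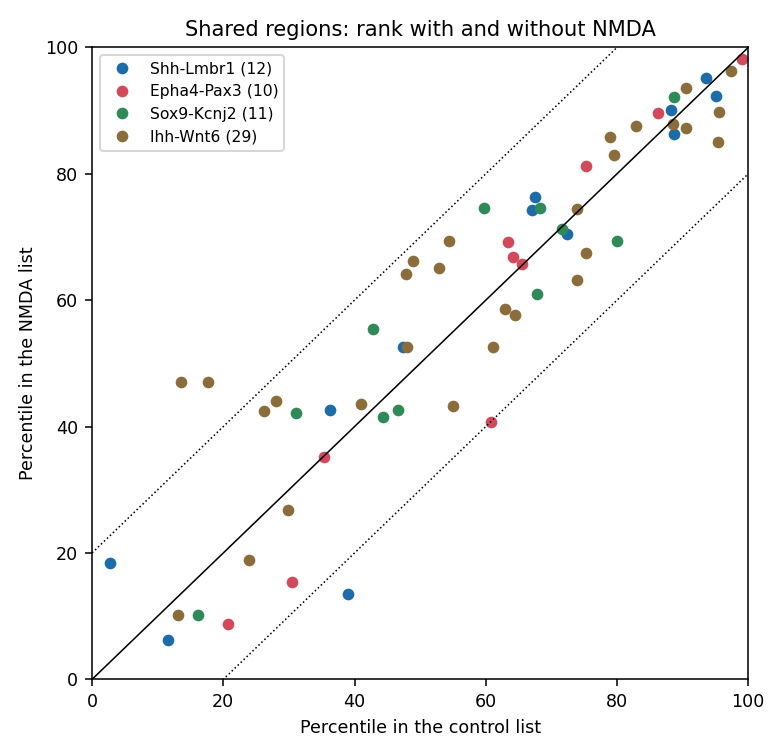
Percentile of each of the 62 shared control regions in the control list (horizontal axis) and of its partner in the NMDA list (vertical axis), coloured by locus. The solid line marks equal percentiles and the dotted lines a difference of 20 points, and 4 points lie outside the dotted lines.

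Ranks of shared regions were compared between the lists. The partner of a control region was the overlapping NMDA region with the nearest summit. The median difference in percentile, NMDA minus control, was 0.35 points in the 4 loci (quartiles −4.74 and 6.35) and 2.54 points over all 30698 shared control regions (−3.14 and 9.49). Of the 62, 32 (51.6%) ranked higher in the NMDA list, against a background of 62.4%. The lists differ in length, on which percentiles depend. With the NMDA list limited to as many regions as the control list, the median became −1.23 points and 47.5% ranked higher. With the first NMDA replicate column they were −0.86 points and 45.2%, and with the second 2.63 points and 58.1%. Backgrounds were not recomputed for these. With the full lists, a percentile 20 points or more higher with NMDA was seen in 2 regions, against a background of 6.14%. Both are the regions beyond Wnt10a that were joined. A percentile 20 points or more lower was seen in 2, against a background of 2.08%: the region at Ube3c and the one at Gm33083 between Epha4 and Pax3. Summits moved little, with a median of 20.5 bp and 59 of 62 within 100 bp. Over the whole list these were 18 bp and 92.7%.

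**Figure D5:**
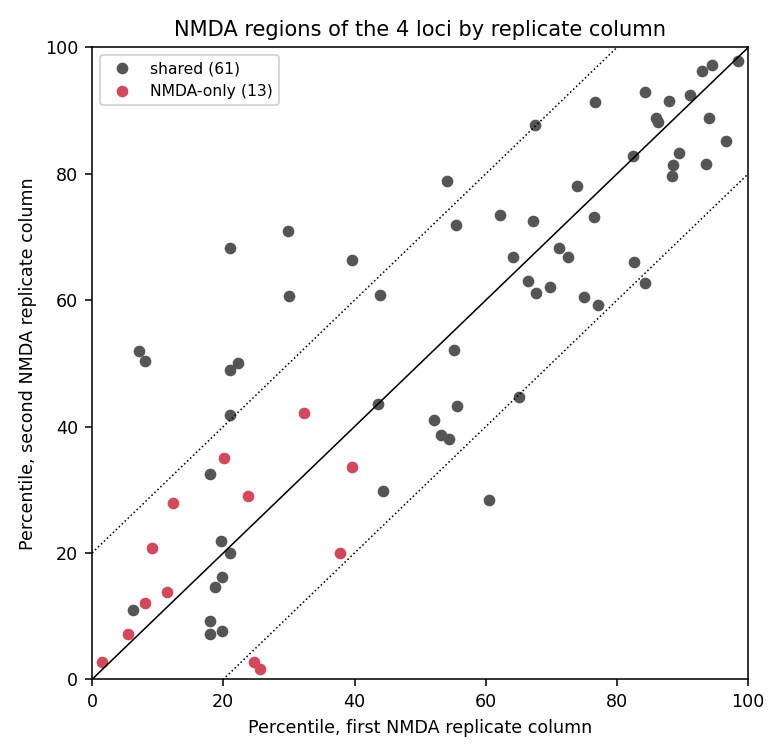
Percentile of the 74 NMDA regions of the 4 loci in the first (horizontal axis) and the second (vertical axis) replicate column of the NMDA list, with 61 shared regions in grey and 13 NMDA-only regions in red. The solid line marks equal percentiles and the dotted lines a difference of 20 points. Shared regions spread to both sides of the solid line, and NMDA-only regions lie at or below the 42.1st percentile in both columns.

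The spread between the replicate columns of the NMDA list was at least as wide as the difference between the lists at most of these regions. The median absolute difference was 9.81 points between the columns and 5.83 points between the lists. The difference between the lists exceeded that between the columns in 26 of 62 shared regions, or 41.9%, and in 40.4% over the whole list. For control, values per replicate were not analysed here.

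Regions found in 1 list were weak within it. The 5 control-only regions had percentiles from 5.2 to 20.9 (median 9.79), and the 13 NMDA-only regions from 0.19 to 38.0 (median 14.6). This was general to the lists, where list-only regions had median percentiles of 9.51 in control and 12.3 with NMDA. Among NMDA regions below the median of their list, 13 of 34 in the 4 loci were NMDA-only, or 38.2%, against 30.6% of all such regions. Among control regions below the median it was 5 of 29, or 17.2%, against 18.3%.

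Regions were assigned to gene ends by their summits alone, with a limit of 1 kb. By this count, 3 of the 9 genes had a region of either list, Epha4, Wnt6 and Sox9. The background was 33.2% of all protein-coding genes. At Epha4 and Sox9 only NMDA summits were that close, those of the weak region split off from the strong one and of the NMDA-only region. The strong control region of Epha4 covered the gene's start but was not counted, since its summit was 1.37 kb away. Shh and Ihh belong to the hedgehog pathway, in which a secreted ligand binds its receptor, releases Smoothened and acts through Gli factors. Of 19 genes of that pathway, listed by their known roles, 12 had a region at an end. The strongest lay at Disp3, of the Dispatched family, at the 99.9th percentile in both lists. Among the ligands, Dhh had a summit within 1 kb of an end and Shh and Ihh had none. The control region of Ihh reached over the gene's start, with its summit 2.69 kb from the nearest end. The receptor gene Ptch1 and the factor genes Gli1 and Gli2 had one in both lists, and Gli3 in neither. Smo had an NMDA-only and Cdon, a coreceptor gene, a control-only region at an end. Of the 40 other protein-coding genes that touch the 4 loci, 20 had a region at an end. A control-only region lay at an end of 4 of them (Zfp142, Bcs1l, Cdk5r2 and Gm2102), against a background of 3.53% of all protein-coding genes. An NMDA-only region lay at an end of 3 (Rbm33, Atg9a and Ankzf1), against a background of 4.28%. Zfp142 and Bcs1l share 1 region, as do Atg9a and Ankzf1. The region at Gm2102 was no longer control-only once regions were extended by 500 bp.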

How the data were processed

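The 8 samples are control and NMDA ChIP libraries and their inputs, 2 each, called biological replicates in the labels. The inputs were not analysed here. The submitters' processing notes name BWA, MACS2, SAMtools, FastQC and Trimmomatic, and the builds mm10 and GRCm38.p6. Versions, settings and read depth were not known. The authors deposited 1 list per condition, named for IDR (irreproducible discovery rate, a measure of agreement between replicates), in which the deposited score runs from 540 to 1000. The deposited −log10 p-value of a region was the signal. It was the sum of both replicate columns of the NMDA list in 36186 of 36186 regions (tolerance 0.001). Whether this holds in the control list could not be checked.

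Unplaced sequences were left out (5 control and 7 NMDA rows). Coordinates are 1-based, with the summit from the deposited offset. Overlaps, percentiles and spacing were computed with Python 3.11.15, pandas 2.3.3, numpy 2.4.6 and scipy 1.17.1. Gene spans and promoters came from RefSeq tables with build GRCm38.p6, whose chromosomes are those of mm10. No genome sequence was used here, so sequences of regions away from promoters are not shown. Simulated data were made by removing 3403 of 33815 control regions and shifting the others slightly. Of the removed regions 99.9% were found list-only, and 100% of the others shared. This checks the code only, since differences in depth or threshold between lists were not simulated.

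The genes, loci and lists were chosen with earlier results of these data known. Regions were named by a rule: those in a member gene or within 5 kb, the 5 strongest shared per locus by NMDA percentile, list-only regions, rank differences of 20 points or more, the closest and widest gaps, those nearest the middle of each pair, and at most 5 neighbouring genes per locus with a region within 1 kb of an end. Outside it, and chosen after their values were seen, are the regions in Farsb, 14.4 kb from Kcnj16 and at 2 sites of the cluster between Kcnj2 and Sox9, and neighbouring genes of the Ihh-Wnt6 locus beyond 5. Since each condition is 1 list, no test between conditions was made. The values of 1 gene of the hedgehog list are not reported here.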

Additional observations from a re-analysis of the deposited data

How the results depend on the processing

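Over 64 alternative values of 10 results, 56 stayed within the interval of a share or within 1.5 times of a count, spacing or density. The number of control-only regions, 5 of 67 as reported, became 9 of 67 with a reciprocal overlap of 50% and 8 of 67 with summits within 100 bp. It was 3 of 52 with a flank of 100 kb, 10 of 109 with a flank of 500 kb and 2 of 27 between the genes only. The number of NMDA-only regions, 13 of 74 as reported, became 8 of 61 with a score of 830 or more in both lists. Between the genes only it was 4 of 27. Since totals change with the flank and the score, shares are the steadier measure. Under all alternatives 86.6 to 94.2% of control and 78.4 to 86.9% of NMDA regions were shared, within the intervals given above. Whole-list shares were not recomputed for these settings. With the first NMDA replicate column in place of the sum, 12 shared regions in place of 4 differed by 20 points or more. With regions extended by 500 bp, an alternative chosen after seeing the data, 4 control-only and 12 NMDA-only regions remained list-only. The control-only region in Gm2102 and the weaker NMDA-only region in Cfap65 did not. The column named for a further ranking holds no values in either list, so that alternative was not run. No paired analysis was possible because each condition is deposited as 1 list over both replicates. For the same reason no replicate could be left out, other than by using 1 NMDA replicate column. Depth is unknown, so a region missing from a list was not detected there and is not shown to be absent.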
